A study of Homo sapiens with 24 samples.

Results

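SAS is an established human HNSCC line (head and neck squamous cell carcinoma) from the tongue. SAS cells irradiated once with 4 Gy of x-rays were compared with sham-irradiated SAS cells (sham), 3 RNA-seq libraries each, without GSK-J1, an inhibitor of the histone H3K27 demethylases KDM6A and KDM6B. RNA was taken after 24 h. These are 6 of the 24 libraries of the series, which holds the lines SAS and Cal33 under GSK-J1 plus 4 Gy, 4 Gy, GSK-J1 at 4.5 µM, and sham, with 3 replicates of each. Both lines are labelled as wild type, and SAS stands here as a single line in culture, without stroma or immune cells. No source used here says whether the replicates were separate cultures, so p-values measure only the spread between these samples, which may be technical.

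Ionizing radiation breaks both strands of DNA. The kinases ATM and ATR then signal the break, which halts the cell cycle, starts repair and, where the protein works, switches on targets of p53. ATM also reaches the cytoplasm and frees the transcription factor NF-kB, which drives cytokines, chemokines and genes of survival, and surviving squamous tumor cells are known for changes in adhesion, matrix and keratins.

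The libraries held 54200036 to 96138774 counts on the strand of the gene. Levels are given in CPM (counts scaled to a common library size by TMM), except that summed marker levels were scaled by the total counts of the library, without TMM. All 11 epithelial markers checked were detected in every library, with a summed level of 10300 to 10950 CPM in the 4 Gy libraries and 6654 to 9160 CPM in the sham libraries. Of 21 markers of blood, endothelial, stromal, muscle and liver cells, 6 to 9 were at 0 in a 4 Gy library and 9 to 10 in a sham library, among them MS4A1, CD3D, ALB and HBB in all 6, and none of the 13 that could be tested was called. Their summed level was 42.5 to 62.2 CPM in the 4 Gy libraries and 37.5 to 129.6 CPM in the sham libraries. CDH5, an endothelial cadherin, had 17.4, 25.7 and 13.4 CPM after 4 Gy, against 86.2, 83.0 and 7.37 CPM in sham (edgeR adjusted p = 0.255), and its part in the results was not tested. Sham replicate 3 lay apart from the other sham libraries: on the first principal component of the 12 SAS libraries, which held 46.4% of the variance, the 4 Gy libraries were at -29.2 to -12.2, sham replicate 3 at 3.15 and sham replicates 1 and 2 at 35.5 and 31.3. GSK-J1 replicate 3 did so too, at -2.32 against 29.7 and 22.3 for GSK-J1 replicates 1 and 2. On the second component (26.8%), replicate 3 was the lowest library of every SAS group. Libraries with the same replicate number deviated together from their group means (r = 0.509, 0.394 and 0.643 across 14059 genes, which are not independent replicates), so values are also given from a fit of the 6 libraries with the replicate number as a block.

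Irradiation changed the level of 1658 of 23416 genes tested, or 7.08%. Of these, 851 were higher after 4 Gy (3.63%) and 807 lower (3.45%), by edgeR's quasi-likelihood test over the 12 SAS libraries at a Benjamini-Hochberg adjusted p under 0.05. The changes were larger upward. Among the higher genes, 313 rose by at least 1 on the log2 scale and 135 by at least 2, and among the lower genes 175 fell by at least 1 and 27 by at least 2. The median log2 fold change was 0.68 over the higher genes, -0.62 over the lower genes and -0.02 over all genes tested. All 1658 genes moved the same way in the 3 pairs of libraries with the same number, and 1656 did not overlap between the groups in CPM, against 13% of all genes tested without overlap upward and 13.8% downward. With the replicate block in the 6 libraries, 1829 genes were called higher and 2040 lower (7.85% and 8.76% of 23287, together 16.6%), and 1637 of the 1658 were among them in the same direction. The 1658 genes were chosen by a test on these same libraries, so none of these counts is separate support for them. Leaving out 4 Gy replicate 1, 2 or 3 or sham replicate 1 or 2 lowered the counts by more than 1.5 times, to between 374 and 472 higher and between 213 and 434 lower, while 903 higher and 977 lower were called without sham replicate 3.

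**Figure D1:**
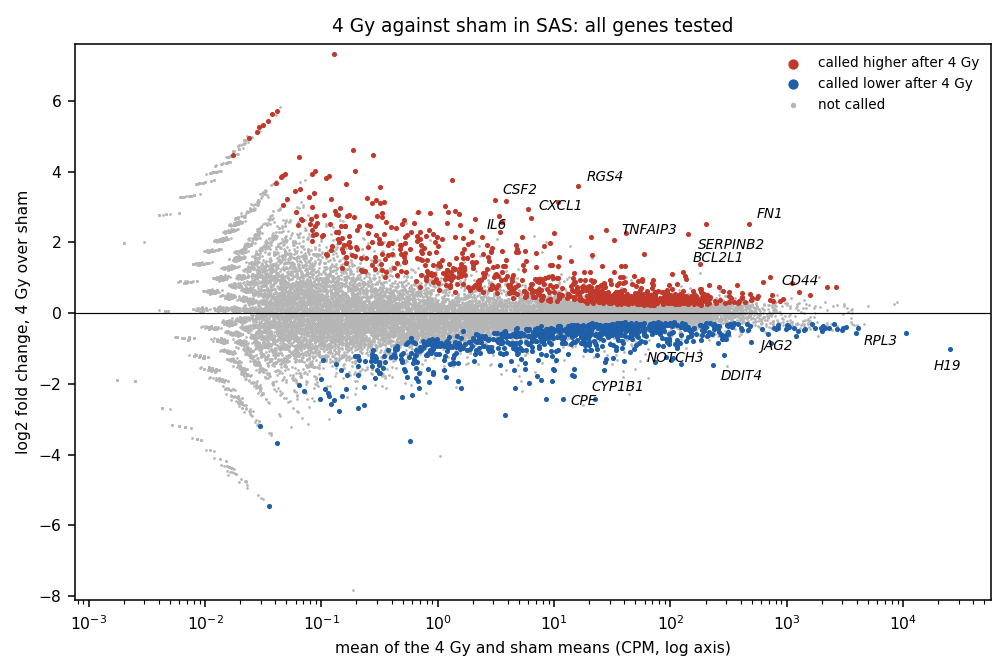
Each point is a gene tested, with the mean of the 4 Gy and sham means on a log axis (CPM) and the log2 fold change of 4 Gy over sham in SAS on the vertical axis. The 851 genes called higher (red) reach larger fold changes than the 807 called lower (blue), and H19 lies at the far right as the gene with the most counts.

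Many inflammatory genes were called higher after 4 Gy. Of 35 tested genes of the NF-kB system and its cytokines, 18 were called higher and none lower, against 3.63% of all genes called higher. The list's median log2 fold change was 0.93, against -0.02 over all genes. NF-kB is known to bind a DNA element called kappa B, and its letters were searched for in the promoters. The following lines show the 80 bases from 120 to 41 bases before the RefSeq start of 7 of these genes on the coding strand (GRCh38.p14). These 7 were picked by hand among the genes called higher and discussed below, and other called genes held no match. Capitals mark matches to the 10-base kappa B consensus on either strand, joined where they overlap, and for IL8 (CXCL8 in RefSeq) the shorter match GGAATTTCC. That shorter match was searched for in IL8 alone, whose promoter did not hold the consensus.
CXCL1 (chr4:73869273-73869352, plus strand): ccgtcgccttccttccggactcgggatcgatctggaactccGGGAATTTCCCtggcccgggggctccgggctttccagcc
CXCL2 (chr4:74099236-74099315, minus strand): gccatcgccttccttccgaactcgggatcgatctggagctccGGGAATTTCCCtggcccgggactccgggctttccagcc
CXCL3 (chr4:74038730-74038809, minus strand): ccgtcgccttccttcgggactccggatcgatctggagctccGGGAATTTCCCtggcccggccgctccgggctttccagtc
IL8 (chr4:73740449-73740528, plus strand): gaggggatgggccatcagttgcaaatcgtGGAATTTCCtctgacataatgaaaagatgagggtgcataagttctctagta
CCL20 (chr2:227813722-227813801, plus strand): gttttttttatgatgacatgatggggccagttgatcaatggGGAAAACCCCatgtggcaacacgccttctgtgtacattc
IL6 (chr7:22727080-22727159, plus strand): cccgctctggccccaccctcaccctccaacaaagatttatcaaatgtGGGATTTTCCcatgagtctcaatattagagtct
TNFAIP3 (chr6:137867139-137867218, plus strand): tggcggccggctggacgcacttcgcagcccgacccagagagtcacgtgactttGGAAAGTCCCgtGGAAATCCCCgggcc

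The 10-base consensus occurs in 5.72% of all 27305 promoters of that table, which run from 250 bases before to 50 after the start. Of the 35 genes of the list, 26 had a promoter there and 12 of these held it. They were 8 of 14 genes called higher and 4 of 12 not called. With fewer than 80% of the list matched, a check of the motif over the list is void, and the matches are a description and not sites.

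Among the ligands, CXCL1, which draws neutrophils, had 15.2, 9.60 and 7.84 CPM in the 4 Gy libraries, against 2.43, 1.18 and 1.43 CPM in the sham libraries (log2 fold change 2.70 ± 0.39 SE, edgeR adjusted p = 0.00212). IL8, a further neutrophil attractant, had 6.48, 6.99 and 3.98 CPM after 4 Gy, against 1.39, 0.605 and 0.616 CPM in sham (2.75 ± 0.48, adjusted p = 0.00605). Every irradiated library lay above every sham library for both. CXCL2 and CXCL3 rose by 1.57 and 1.45 on the log2 scale. IL8, CXCL1, CXCL3 and CXCL2 follow one another among the genes above 0.1 CPM at chr4:74606223-74965010 (hs37d5), 1 of 4 runs of at least 4 neighbouring calls in the same direction. CXCL1, CXCL2 and CXCL3 are near copies, and the split of reads among them is uncertain.

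CSF2, the granulocyte-macrophage colony-stimulating factor, was scarce, with 449, 350 and 349 counts after 4 Gy against 46, 35 and 57 in sham (6.19, 6.32 and 4.24 CPM, against 0.695, 0.529 and 0.595 CPM; log2 fold change 3.20 ± 0.21, adjusted p = 2.43e-05). Its adjusted p was 0.0716 over all 24 libraries. IL6 had 6.39, 10.0 and 9.38 CPM after 4 Gy, against 1.80, 1.59 and 2.34 CPM in sham (2.16 ± 0.25, adjusted p = 0.000539). CCL5, which recruits T cells, rose by 2.86 ± 0.66 (adjusted p = 0.0233) at 2.13 ± 1.29 CPM after 4 Gy and 0.295 ± 0.142 CPM in sham (SD, n = 3 each). Its irradiated libraries spread from 0.851 to 3.42 CPM and stayed above the sham range. CCL20 rose by 1.94, LIF, an IL6 family cytokine, by 0.93, and IL24, a cytokine outside the list, by 2.27 on the log2 scale. TNF and CSF3 had log2 fold changes of 2.58 ± 0.92 and 2.54 ± 0.72 but did not pass (edgeR adjusted p = 0.11 and 0.0512), at no more than 0.152 and 1.64 CPM in any of the 6 libraries.

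Among the subunits and inhibitors of the pathway, several were called higher. NFKB2, the precursor of the p52 subunit, had 90.5, 88.7 and 90.9 CPM after 4 Gy, against 51.0, 48.9 and 55.6 CPM in sham (0.80 ± 0.08, adjusted p = 0.000262). RELB, its partner, rose by 0.75 ± 0.08 and NFKB1 by 0.35 ± 0.09, while RELA (0.17 ± 0.09, adjusted p = 0.247) and REL (-0.08 ± 0.15, adjusted p = 0.811) did not pass. TNFAIP3, the ubiquitin-editing enzyme that ends NF-kB signaling, had 52.0, 55.7 and 51.0 CPM after 4 Gy, against 15.2, 8.69 and 14.0 CPM in sham (2.07 ± 0.22, adjusted p = 0.000308). The inhibitor NFKBIE rose by 0.60, and NFKBIA, the main inhibitor, had a log2 fold change of 0.23 ± 0.14 (adjusted p = 0.34, and 0.0484 with the replicate block). BIRC3, an inhibitor of apoptosis, ICAM1, a leukocyte adhesion molecule, PTGS2, the inducible cyclooxygenase, and IL1RN, the antagonist of the IL1 receptor, rose by 1.05, 1.11, 1.70 and 1.70. The list had 10 higher calls without 4 Gy replicate 1 and 10 without sham replicate 2, 17 higher and 1 lower without sham replicate 3, 12 higher on pairs 1 and 2 alone, 27 higher and 1 lower with the replicate block, and 6 higher over all 24 libraries of both lines. With the block, 7.85% of all genes were higher and 8.76% lower. In this group CCL20, CXCL2, CXCL3, LIF, IL24, the NF-kB subunits and inhibitors, BIRC3, ICAM1, PTGS2 and IL1RN were picked for naming after their values were seen.

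Matrix and adhesion genes showed some of the largest changes at high level. FN1, which encodes fibronectin, had 772, 667 and 973 CPM in the 4 Gy libraries, against 93.7, 132 and 191 CPM in the sham libraries (log2 fold change 2.53 ± 0.37, edgeR adjusted p = 0.0021). The lowest irradiated library was far above the highest sham library. PLAUR, the urokinase receptor, had 36.9 ± 3.16 CPM after 4 Gy and 14.6 ± 0.317 CPM in sham (1.34 ± 0.12, adjusted p = 0.000179), whereas its ligand PLAU had 280, 329 and 323 CPM after 4 Gy against 282, 228 and 141 CPM in sham and did not pass (adjusted p = 0.212, and 0.0218 with the replicate block).

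**Figure D2:**
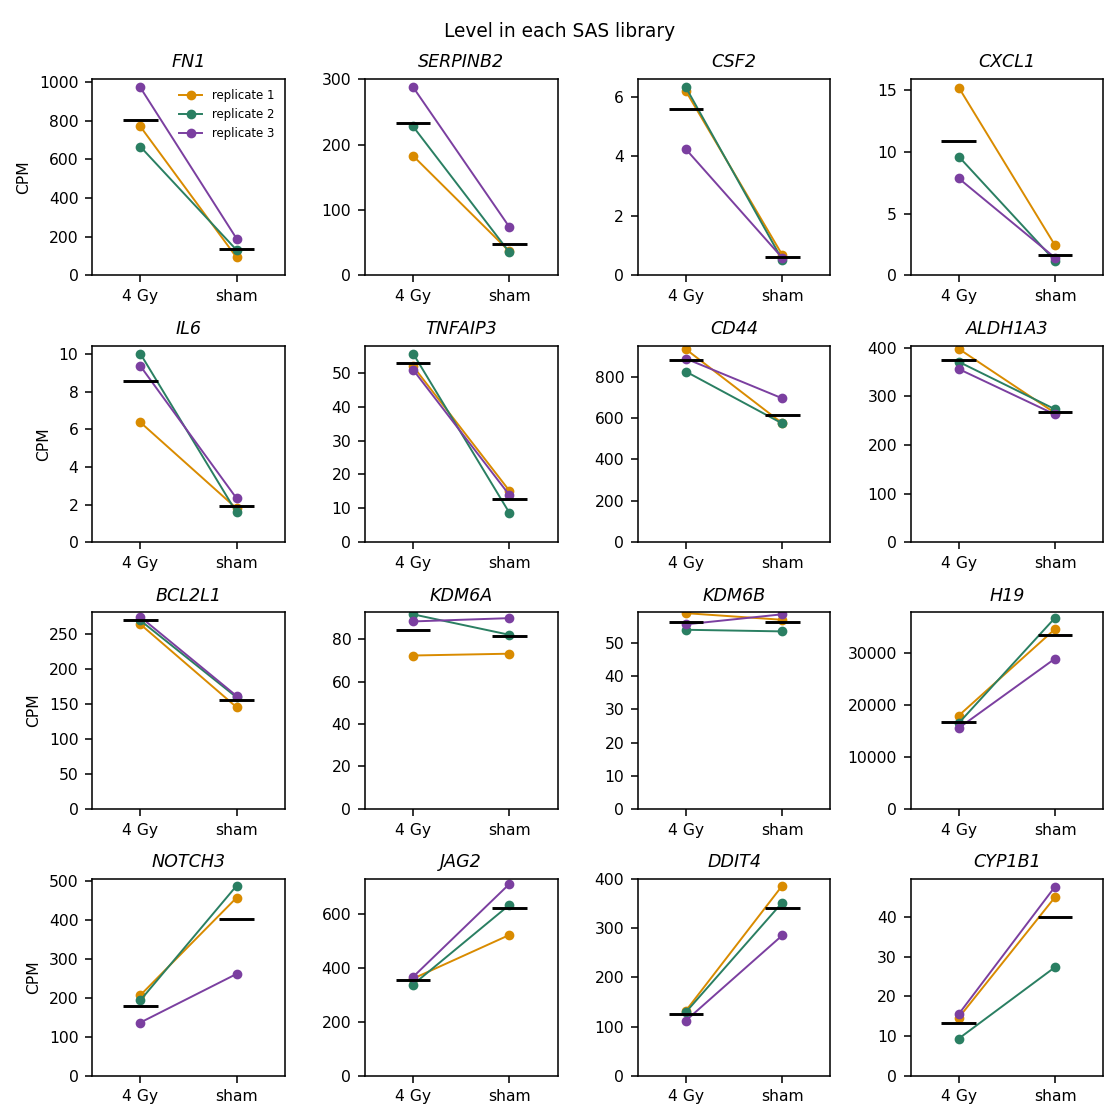
CPM of 16 genes in each SAS library, 4 Gy on the left and sham on the right of each panel; lines join libraries with the same replicate number and black bars are group means (n = 3). FN1, SERPINB2, CSF2, CXCL1, IL6, TNFAIP3, CD44, ALDH1A3 and BCL2L1 are higher and H19, NOTCH3, JAG2, DDIT4 and CYP1B1 lower in every 4 Gy library than in every sham library, while KDM6A and KDM6B overlap. Sham replicate 3 is the sham library nearest to the 4 Gy values for FN1, SERPINB2, IL6, CD44, BCL2L1, H19, NOTCH3 and DDIT4.

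Of 24 tested genes of epithelial-mesenchymal transition, the change in which epithelial cells loosen their contacts, 6 were called higher and none lower (median 0.30). The shares over all genes were 3.63% and 3.45%. With the replicate block, 12 were called higher and 1 lower, against 7.85% and 8.76% of all genes. Besides FN1, the 6 included MMP9, a gelatinase (0.524 ± 0.157 CPM after 4 Gy and 0.128 ± 0.0453 CPM in sham), CDH2, the N-cadherin (8.62 ± 1.92 and 2.52 ± 0.689 CPM), the repressor SNAI1 (3.09 ± 0.448 and 1.61 ± 0.225 CPM) and the adhesion molecule L1CAM (68.0 ± 8.53 and 36.2 ± 8.76 CPM, added to the named genes afterward). CDH1, the E-cadherin, had 329, 458 and 423 CPM after 4 Gy against 343, 436 and 307 CPM in sham (0.16 ± 0.17, adjusted p = 0.634), and VIM, the vimentin gene, missed the threshold (0.97 ± 0.31, adjusted p = 0.0763, and 0.00384 with the block). CDH11, a cadherin of mesenchymal cells, stood among the 12 largest increases, with 8.08, 6.07 and 6.75 CPM after 4 Gy against 0.877, 0.695 and 0.762 CPM in sham (3.16 ± 0.21, adjusted p = 2.43e-05).

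Of 20 targets of TGF-beta and the co-activator YAP, 5 were called higher and none lower (median 0.25). The shares over all genes were 3.63% and 3.45%. CTGF, a secreted matrix factor, had 7.97, 5.94 and 8.30 CPM after 4 Gy, against 2.96, 1.39 and 1.97 CPM in sham (1.81 ± 0.31, adjusted p = 0.00531), and INHBA, a subunit of activin, rose by 0.92 ± 0.18. Of 12 laminin chains, 4 were higher and 2 lower, against the same shares of all genes. LAMA3 and LAMB3, chains found in the basement membrane under keratinocytes, rose by 0.97 ± 0.14 and 1.02 ± 0.20 on the log2 scale. LAMB3 had 1054, 859 and 976 CPM after 4 Gy, against 471, 382 and 572 CPM in sham. The chains LAMA5 and LAMB1 fell by 0.65 and 0.59. Among the 23 tested integrin subunits, which bind these chains, none was called by edgeR without the block. With it, 3 were higher and 4 lower, against 7.85% and 8.76% of all genes. Laminins and integrins were taken as whole families after the data had been seen.

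Of 20 matrix proteases and members of the urokinase system, 5 were called higher, among them MMP9, PLAUR, SERPINE2 (1.05 ± 0.16), a protease inhibitor, and TIMP1 (0.59 ± 0.14), an inhibitor of matrix metalloproteases. The median of that list was 0.04, and 3.63% of all genes were called higher. MMP1, the collagenase, had 65.7, 58.2 and 49.2 CPM after 4 Gy against 33.3, 30.1 and 3.79 CPM in sham and did not pass (adjusted p = 0.209).

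Keratins rose on balance. Of 32 tested keratin genes, 13 were called higher and 1 lower (median 0.54), against 3.63% and 3.45% of all genes. KRT8 and KRT18, which pair in simple epithelia, were the most abundant of the called ones: KRT8 had 3280, 3426 and 3291 CPM in the 4 Gy libraries, against 1941, 2346 and 1641 CPM in the sham libraries (0.75 ± 0.12, edgeR adjusted p = 0.0041), and KRT18 rose by 0.73 ± 0.11. KRT14, the basal keratin, rose by 0.79 ± 0.13, but its partner KRT5 had 1278, 1390 and 1572 CPM after 4 Gy against 1516, 2183 and 1128 CPM in sham (adjusted p = 0.658). The keratins of wounded and hyperproliferative epidermis were higher. KRT6A had 38.0, 24.7 and 38.0 CPM after 4 Gy, against 7.15, 9.32 and 6.31 CPM in sham (2.15 ± 0.35, adjusted p = 0.0037), KRT6B rose by 2.54 ± 0.47 and KRT16 by 1.599 ± 0.193. KRT6C had 7, 1 and 5 counts after 4 Gy and 0 in all sham libraries. KRT17, of the same group, was the keratin that fell, with 349 ± 18.6 CPM after 4 Gy and 483 ± 44.7 CPM in sham (-0.47 ± 0.08, adjusted p = 0.00679). The hair keratin KRT81 had 61.4, 83.3 and 63.0 CPM after 4 Gy, against 9.07, 18.5 and 15.7 CPM in sham. KRT6A, KRT6B and KRT6C share most of their sequence, as do KRT81 and KRT86, so reads could be split wrongly within each set.

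Genes of keratin-associated proteins, which bind keratins in the hair shaft, held the largest increase under the naming rule. KRTAP3-1 had 148, 205 and 140 counts after 4 Gy against 21, 14 and 4 in sham, or 2.04, 3.70 and 1.70 CPM against 0.318, 0.212 and 0.0418 CPM (3.77 ± 0.51, adjusted p = 0.00152). KRTAP2-3, the most abundant, had 17.0, 19.9 and 21.6 CPM after 4 Gy, against 1.04, 1.66 and 3.73 CPM in sham (3.16 ± 0.38, adjusted p = 0.000797). Within chr17:39155447-39262740 (hs37d5), 6 consecutive genes of this family above 0.1 CPM were all called higher: KRTAP3-2, KRTAP3-1, KRTAP1-5, KRTAP2-3, KRTAP4-8 and KRTAP4-9. The members are near copies as well.

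Of 41 genes of squamous differentiation, 9 were higher and 2 lower (median 0.20), against 3.63% and 3.45% of all genes. Beside KRT6A, KRT6B, KRT6C and KRT16 the higher ones were SPRR1A, SPRR2A, SBSN, CRCT1 and ECM1, whose products lie in or near the cornified envelope. They were scarce: SBSN had 0.328 ± 0.0949 CPM after 4 Gy and 0.0507 ± 0.0168 CPM in sham, and SPRR2A had 5, 5 and 10 counts after 4 Gy against 0, 0 and 2 in sham. CRCT1 reached 4.63, 2.62 and 2.37 CPM after 4 Gy against 0.680, 0.877 and 0.376 CPM in sham. DSC2, a desmosomal cadherin, fell by 0.38 ± 0.08 (adjusted p = 0.0125).

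The SERPINB genes, whose products inhibit proteases inside epithelial cells, were higher in 5 of 11 and lower in none (median 0.71, or 0.34 without sham replicate 3). With the block, 8 were higher and 1 lower. Among all genes, 3.63% were higher, or 7.85% with the block. SERPINB2, which inhibits urokinase, had 183, 228 and 288 CPM in the 4 Gy libraries, against 36.8, 35.5 and 74.1 CPM in the sham libraries (2.25 ± 0.36, edgeR adjusted p = 0.00362). SERPINB7 had 2.68 ± 0.490 CPM after 4 Gy and 0.609 ± 0.0450 CPM in sham (2.13 ± 0.23), and SERPINB5, also called maspin, rose by 0.71 ± 0.08. SERPINB8 and SERPINB10 were the other members called. Keratins and SERPINB genes were taken as whole families after the data had been seen, and most of the keratins and KRTAP genes named here were picked then.

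The classical p53 targets moved in both directions. Of 28 tested, 5 were higher and 3 lower, against 3.63% and 3.45% of all genes, with a median of 0.001. CDKN1A, the cell cycle inhibitor p21, had 112, 120 and 115 CPM in the 4 Gy libraries, against 69.3, 91.0 and 82.3 CPM in the sham libraries (0.52 ± 0.11, edgeR adjusted p = 0.0158). The groups did not overlap. GADD45A, a stress sensor, rose by 0.64 ± 0.15, GDF15, a stress cytokine, by 0.54 ± 0.13, the nuclease gene AEN by 0.73 ± 0.17 and C12orf5, which encodes the glycolytic regulator TIGAR, by 0.82 ± 0.13. MDM2, the ligase that degrades p53, had 82.5, 110 and 98.4 CPM after 4 Gy against 89.2, 88.9 and 85.1 CPM in sham (0.15 ± 0.12, adjusted p = 0.488). DDB2 and XPC, which find lesions for nucleotide excision repair, fell by 0.38 and 0.42, and PERP, a desmosomal target, by 0.32. The last 4 genes were picked after their values were seen.

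Some genes of DNA replication and mitosis were called higher after 4 Gy. Over all genes, 47.6% had a positive fold change and 3.63% were called higher, or 7.85% with the replicate block. Of 34 genes of the G1/S transition and replication, 33 had a positive fold change and 8 were called higher, none lower (median 0.28), with 19 higher under the replicate block. There were 3 such calls on pairs 1 and 2 alone and none over all 24 libraries, and 5, 2 and 3 without 4 Gy replicate 1, 2 or 3, against 2, 5 and 14 without sham replicate 1, 2 or 3. CDC6, which loads the replicative helicase, had 96.6, 117 and 110 CPM after 4 Gy, against 64.6, 70.0 and 79.4 CPM in sham (0.59 ± 0.12, adjusted p = 0.0116). The further named calls, CCNE1 (cyclin E1), RRM2 (ribonucleotide reductase), ORC6 (origin recognition) and the transcription factor E2F8, rose by 0.55, 0.50, 0.47 and 0.77. Of 38 genes of G2/M and mitosis, 36 had a positive fold change and 4 were called higher, none lower (median 0.21), with 13 higher under the block. CDC20, the activator of the anaphase-promoting complex, had 218, 195 and 242 CPM after 4 Gy, against 128, 159 and 148 CPM in sham (0.59 ± 0.11, adjusted p = 0.00984), and the kinase AURKA rose by 0.45 ± 0.10. For the list of G2/M, no member was called on pairs 1 and 2 alone, an alternative chosen after seeing the data, whose median was 0.17, and none without 4 Gy replicate 3. There were 2, 1 and 2 calls without 4 Gy replicate 1, sham replicate 1 or sham replicate 2, and 1 over all 24 libraries.

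Over all genes, 7.08% were called in either direction, and the repair lists are read against that share where no block is used. None of 22 genes of homologous recombination was called by edgeR without the block (median 0.12). With the replicate block 5 were higher, against 7.85% of all genes. Among the 5 was EXO1, a resecting nuclease, with 41.7, 52.4 and 55.6 CPM after 4 Gy and 28.9, 34.4 and 45.4 CPM in sham (0.46 ± 0.18, adjusted p = 0.144, and 0.00212 with the block). Of 13 genes of end joining, POLL, a gap-filling polymerase, was called and fell by 0.32 ± 0.08. In checkpoint signaling, 2 of 23 genes were called, both higher: the adaptor CLSPN by 0.66 ± 0.17 and the phosphatase CDC25A, which lets the cycle go on, by 0.52 ± 0.09. Of 18 BCL2 family genes, BCL2L1, whose main product BCL-xL blocks apoptosis, had 264, 270 and 275 CPM after 4 Gy, against 145, 160 and 162 CPM in sham (0.79 ± 0.07, adjusted p = 0.000139). BMF, which promotes apoptosis, fell by 0.56 ± 0.14, and the other 16 were not called. TNFRSF1A, the TNF receptor, was the 1 called member of 14 death receptors and ligands and fell by 0.33 ± 0.08.

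Of 16 genes linked to senescence, a lasting arrest with secretion of cytokines, 6 were higher and none lower, against 3.63% and 3.45% of all genes. The higher ones included IL8, IL6, HMGA2, GDF15 and CDKN1A. HMGA2, a chromatin architect, had 166, 146 and 219 CPM after 4 Gy, against 65.6, 67.2 and 105 CPM in sham (1.15 ± 0.20, edgeR adjusted p = 0.00635). The arrest genes CDKN2A and CDKN2B had log2 fold changes of -0.07 and -0.17, and LMNB1, lost in senescent cells, 0.02. None of these 3 passed (adjusted p = 0.767, 0.737 and 0.917).

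The targets of GSK-J1 and markers of cancer stem cells were of interest in the study. It assayed demethylase activity after irradiation, and ALDH, CD44 and CD133 by flow cytometry, at times other than 24 h. The values here are RNA levels and not the same measure. KDM6A had 72.3, 91.8 and 88.4 CPM in the 4 Gy libraries, against 73.2, 82.1 and 90.0 CPM in the sham libraries (0.04 ± 0.11, edgeR adjusted p = 0.864), and KDM6B had 59.0, 54.0 and 55.6 CPM against 57.0, 53.5 and 58.6 CPM (-0.0046 ± 0.09, adjusted p = 0.984). The groups overlapped for both demethylases. Of the 21 genes of the demethylases and Polycomb, only CBX7, a reader of H3K27me3, was called, and it fell by 0.51 ± 0.11. Both CD44 and ALDH1A3, markers used in the study, were higher. CD44, the hyaluronan receptor, had 932, 824 and 887 CPM after 4 Gy against 575, 574 and 695 CPM in sham (0.52 ± 0.10, adjusted p = 0.0115). ALDH1A3, the aldehyde dehydrogenase, had 398, 371 and 356 CPM after 4 Gy against 266, 273 and 263 CPM in sham (0.49 ± 0.08, adjusted p = 0.00386). In the fit of all 24 libraries neither CD44 nor ALDH1A3 passed (edgeR adjusted p = 0.0577 and 0.15). PROM1, which encodes CD133, had 5, 1 and 0 counts after 4 Gy and 5, 4 and 0 in sham, too few for a comparison. Over the 20 tested stem cell markers, 3 were higher and 2 lower (median 0.07), against 3.63% and 3.45% of all genes. The third higher one was the drug pump ABCG2 (1.03 ± 0.24), and the lower ones were NGFR, the nerve growth factor receptor, with 212, 198 and 137 CPM after 4 Gy against 358, 398 and 231 CPM in sham, and the pluripotency factor SOX2, with 15, 18 and 26 counts against 83, 88 and 43.

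Also among the 12 largest increases were RGS4, HSD11B1 and ANGPTL4, beside KRTAP1-5. RGS4, which damps G-protein signaling, had 22.0, 42.6 and 25.04 CPM after 4 Gy, against 1.59, 3.39 and 2.47 CPM in sham (3.59 ± 0.43, edgeR adjusted p = 0.000703). HSD11B1, which turns cortisone into cortisol, had 13.1, 10.2 and 8.40 CPM after 4 Gy, against 1.39, 1.42 and 1.34 CPM in sham (2.93 ± 0.21, adjusted p = 2.94e-05). ANGPTL4, an inhibitor of lipoprotein lipase, rose by 2.80 ± 0.30. RGS4, HSD11B1 and ANGPTL4 were below 4 CPM in every sham library.

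**Figure D3:**
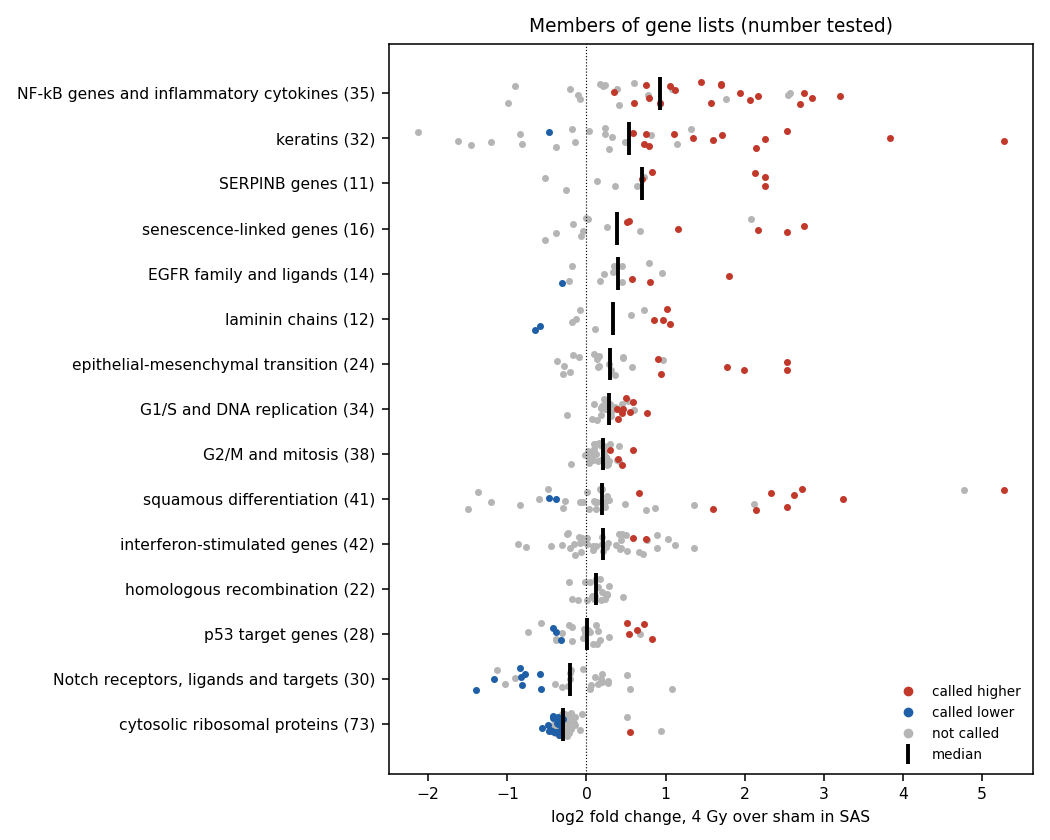
Log2 fold change of 4 Gy over sham in SAS for every tested member of 15 gene lists (number tested in parentheses), with calls in red and blue and the list median as a black bar. The NF-kB list has the highest median (0.93) and ribosomal proteins the lowest (-0.30); the point at the far right in keratins and squamous differentiation is KRT6C, at 0 counts in all sham libraries, whose fitted value depends on the prior count.

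Among the genes that fell, H19 took the largest share of reads. This long noncoding RNA of an imprinted region of chromosome 11 was the gene with the most counts in all 6 libraries, with 1.81, 1.69 and 1.58% of all counts after 4 Gy, against 3.36, 3.58 and 2.88% in sham. It had 16670 ± 1200 CPM after 4 Gy and 33430 ± 4055 CPM in sham (SD, n = 3 each, log2 fold change -1.003 ± 0.126, edgeR adjusted p = 0.00102). Its neighbours fell with it. At chr11:1848709-1959936 (hs37d5) the 4 consecutive genes above 0.1 CPM, SYT8, TNNI2, LSP1 and TNNT3, were all called lower. SYT8, a synaptotagmin, had 60.7, 63.6 and 63.7 CPM after 4 Gy, against 143, 170 and 135 CPM in sham (-1.25 ± 0.09, adjusted p = 2.94e-05), and TNNT3, a troponin of fast muscle, had 7.10, 6.99 and 5.80 CPM against 23.9, 31.8 and 12.7 CPM (-1.78 ± 0.32, adjusted p = 0.0069). MRPL23, a mitochondrial ribosomal protein gene between TNNT3 and H19, had 39.5, 29.5 and 32.7 CPM after 4 Gy and 35.7, 39.8 and 30.4 CPM in sham (-0.06 ± 0.13, adjusted p = 0.843), while MRPL23-AS1 on the other strand fell by 1.07 ± 0.18. IGF2, the imprinted partner of H19, had 0.499 CPM after 4 Gy and 0.262 CPM in sham and was not called (adjusted p = 0.359). Except for TNNT3, this region was singled out after its values were seen.

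Notch signaling, in which a ligand on one cell binds a receptor on the next and so exposes it to cleavage by proteases, steers squamous cells toward differentiation. Of 30 tested receptors, ligands, modifiers and targets, 8 were called lower and none higher (median -0.21), against 3.45% of all genes called lower, while 12 had a positive fold change. With the replicate block 11 were lower and 3 higher, against 8.76% and 7.85% of all genes. The receptor NOTCH3 had 206, 193 and 136 CPM in the 4 Gy libraries, against 456, 487 and 261 CPM in the sham libraries (-1.17 ± 0.27, edgeR adjusted p = 0.0224), and NOTCH1 fell by 0.58 ± 0.12. Sham replicate 3 was the lowest sham library for NOTCH3 and still lay above all 4 Gy libraries. The ligand JAG2 had 361, 338 and 367 CPM after 4 Gy, against 523, 634 and 712 CPM in sham (-0.81 ± 0.12, adjusted p = 0.00219), and the ligand DLL1 fell by 0.83 ± 0.18. Of the targets and modifiers, NRARP fell by 0.59, HES4 by 0.84, HEYL by 1.40 and the ligase gene DTX4 by 0.78. RIPK4, a kinase of keratinocyte differentiation, and TP73, a relative of p53 and p63, also fell, RIPK4 with 63.9, 76.6 and 58.4 CPM against 174, 239 and 121 CPM and TP73 by 1.10 ± 0.15. The Notch family, RIPK4 and TP73 were chosen after their values were seen.

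Over all genes, 3.45% were called lower, or 8.76% with the replicate block. Of 73 tested genes of cytosolic ribosomal proteins, 19 were called lower and 1 higher (median -0.30), and 70 had a negative fold change. The lower calls were 56 with the replicate block, 12 over all 24 libraries and 5 on pairs 1 and 2 alone. They were 10, 7 and 3 without 4 Gy replicate 1, 2 or 3, and 6, 13 and 26 without sham replicate 1, 2 or 3. RPL3 had 3415, 3147 and 2926 CPM after 4 Gy, against 5250, 4657 and 4073 CPM in sham (-0.56 ± 0.12, adjusted p = 0.0133), and RPL10A had 843, 803 and 821 CPM against 1155, 1103 and 1131 CPM (-0.46 ± 0.08, adjusted p = 0.00467). RPS26 went the other way, with 117, 113 and 108 CPM after 4 Gy against 80.9, 87.3 and 62.3 CPM in sham. These genes have many processed pseudogenes, which could take part of their reads. A larger fall was seen for DDIT4, which restrains the growth kinase mTORC1, with 132, 129 and 112 CPM after 4 Gy against 387, 353 and 286 CPM in sham (-1.45 ± 0.14, adjusted p = 0.000262). It was the only call among 23 genes of the integrated stress and unfolded protein responses.

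The 12 largest decreases were on transcripts of low level, and sham replicate 3 was the lowest sham library in 11 of them. CPE, a prohormone-processing enzyme, had 3.78, 4.87 and 2.47 CPM after 4 Gy, against 34.9, 19.3 and 5.74 CPM in sham (-2.44 ± 0.61, edgeR adjusted p = 0.0316), and ATOH8, a transcription factor of the atonal family, had 8.48, 8.97 and 3.87 CPM against 49.8, 51.3 and 12.3 CPM (-2.42 ± 0.61, adjusted p = 0.033). The exception was the pseudogene EEF1A1P6, with 3.20, 2.80 and 2.09 CPM after 4 Gy and 4.82, 4.90 and 33.6 CPM in sham, whose fold change of -2.43 became -0.85 without sham replicate 3 (adjusted p = 0.0164). As a near copy of EEF1A1 its reads are uncertain. More even across libraries were the semaphorin SEMA6D (0.483, 0.794 and 0.523 CPM, against 3.21, 2.84 and 1.72 CPM), the transporter SLC47A2 (3.31 ± 0.482 and 12.2 ± 3.14 CPM) and the matrix protein EDIL3 (3.99 ± 0.894 and 15.1 ± 5.46 CPM), which fell by 2.12, 1.88 and 1.92. RCSD1 fell by 1.99, and the noncoding RP1-124C6.1, RP11-54O7.3, WDR86-AS1 and RP11-1038A11.1 by 2.88, 2.11, 1.93 and 1.79. The calls on lower genes also reached more noncoding classes: of 2199 antisense transcripts tested, 14 were higher and 63 lower, against 759 higher and 614 lower of 14957 protein-coding genes.

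The second irradiation contrast in SAS, GSK-J1 plus 4 Gy against GSK-J1, used libraries that the first did not, with an estimate of the spread shared by all 12. In these libraries, too, replicate 3 lay apart from replicates 1 and 2. It called 570 genes higher and 466 lower (4.42% of 23416). GSK-J1 replicate 1 and GSK-J1 plus 4 Gy replicate 1 held Cal33 transcripts at 1.59 and 0.748% of the Cal33 level over 13 genes, against at most 0.012% in the 4 Gy and sham libraries, and without these 2 libraries 67 genes were called higher and 30 lower. They also enter the shared spread of the first contrast, 4 Gy against sham, which called 684 genes higher and 622 lower without them. The direction was shared among the called genes: of the 851 genes higher after 4 Gy alone, 850 had a positive fold change under GSK-J1 and 439 (51.6%) were called higher, and of the 807 lower genes 802 were negative and 384 (47.6%) called lower. Among all genes, 2.43% were called higher under GSK-J1 and 1.99% lower, and the share with each sign is not given. Both contrasts correlated at r = 0.513 over all genes tested and at 0.916 over the called genes. The median log2 fold change of the higher genes was 0.57 with GSK-J1 and 0.68 without, and that of the lower genes -0.49 with and -0.62 without. FN1 rose by 2.15 under GSK-J1 (edgeR adjusted p = 0.00698), IL6 by 2.15 (0.000728) and BCL2L1 by 0.61 (0.000751), and H19 fell by 0.75 (0.00714). CD44, at 0.37, did not pass there (adjusted p = 0.0618). KRT6A had a log2 fold change of 0.75 with GSK-J1 (adjusted p = 0.22) against 2.15 without. The test of the difference between both contrasts called no gene in edgeR, with 399 genes at an unadjusted p under 0.05, and none in DESeq2, with 223. This does not show that the responses are alike.

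**Figure D4:**
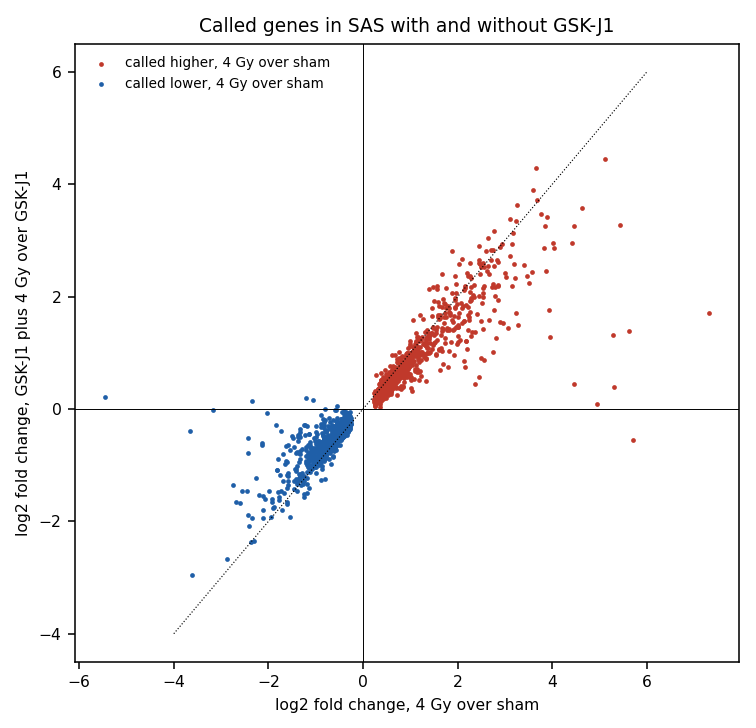
Log2 fold change of GSK-J1 plus 4 Gy over GSK-J1 against that of 4 Gy over sham, for the 851 genes called higher (red) and the 807 called lower (blue) in SAS without GSK-J1; the dotted line marks equal values. All but 1 of the red and 5 of the blue points keep their sign. The values on the horizontal axis chose the genes.

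Most of the genes changed in SAS leaned the same way in Cal33, the other HNSCC line of the series. In Cal33, 4 Gy against sham called 1382 genes higher (5.62% of 24597) and 1308 lower (5.32%). Of the genes higher in SAS, 768 had a positive fold change in Cal33 and 314 were called higher, and of the lower ones 694 were negative and 257 called lower. The share of all genes with each sign in Cal33 is not given. The median log2 fold changes in Cal33 were 0.49 over the genes higher in SAS and -0.39 over the lower ones. The test of the difference between the lines called 35 genes with a larger and 70 with a smaller value in SAS (0.427% of 24597), among them 16 of the 851 higher and 11 of the 807 lower genes in the direction of a stronger SAS response. FN1, CXCL1, TNFAIP3, CD44, BCL2L1, H19 and NOTCH3 were not among them (adjusted p for the difference between 0.734 and 1.0).

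Interferon-stimulated genes, which follow the sensing of foreign or displaced nucleic acid, were where the lines differed most among the lists. In SAS, 2 of 42 were called higher, near the 3.63% of all genes, and none lower, with a median of 0.20. DDX58, the RNA sensor RIG-I, rose by 0.75 ± 0.16 and the ligase gene HERC6 by 0.59 ± 0.14. With the replicate block 10 were higher and 2 lower, against 7.85% and 8.76% of all genes. Without sham replicate 3 the median was 0.007. In Cal33 the median was 1.77. For 8 of the 42 the difference passed, and each was smaller in SAS. Among them were PLSCR1, EPSTI1, IFIT5, DTX3L, UBE2L6, IFI35 and CXCL10, with differences of -4.10 to -0.90. PLSCR1, a membrane scramblase induced by interferon, had a difference of -1.27 (adjusted p = 0.0122). Among the NF-kB genes, with medians of 0.93 in SAS and 1.84 in Cal33, IL6 (-4.07, adjusted p = 0.00599) and IL36G (-3.999, adjusted p = 0.0429), a cytokine of the IL1 family, differed, both smaller in SAS. For CSF2 the difference of -4.40 did not pass (adjusted p = 0.383). In the Notch list DTX4 differed, with a fall in SAS and -0.16 in Cal33 (difference -0.62, adjusted p = 0.0353). The ribosomal protein list had a median of -0.30 in SAS and -0.01 in Cal33, and no member differed between the lines. The interferon-stimulated genes that differed, IL36G and DTX4 were named after their values were seen.

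**Figure D5:**
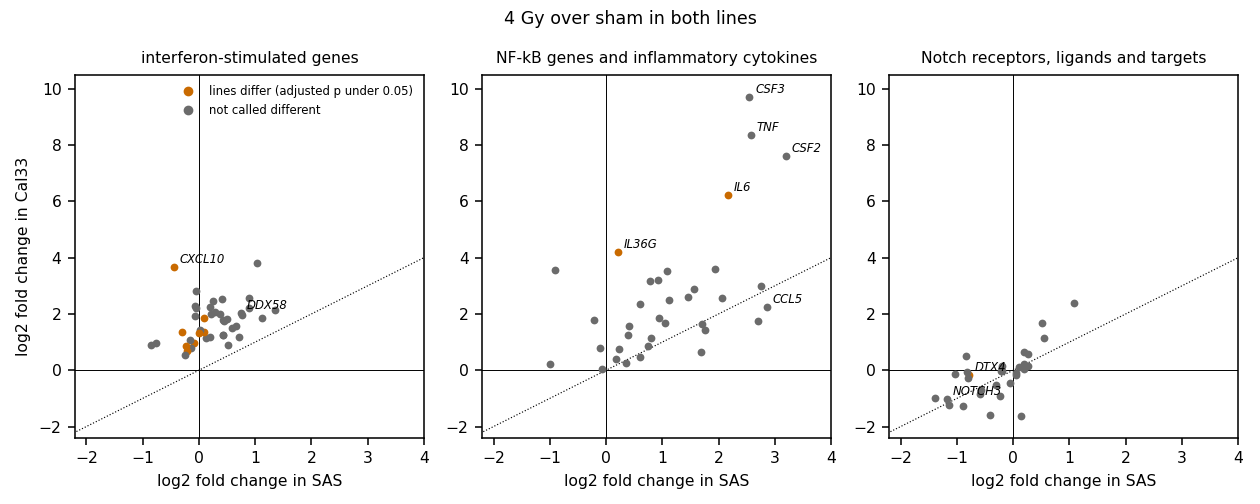
Log2 fold change of 4 Gy over sham in Cal33 against that in SAS for the tested members of 3 lists; the dotted line marks equal values and orange points are genes whose effect differed between the lines. Interferon-stimulated genes lie above the line, with medians of 0.20 in SAS and 1.77 in Cal33; 30 of 35 NF-kB genes are positive in SAS and most lie above the line, and Notch genes spread on both sides of it.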

How the data were processed

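RNA of SAS and Cal33 cells was sequenced after Illumina TruSeq Stranded Total RNA preparation. Per the labels and the submitters' processing notes, the authors aligned reads to hs37d5 with STAR 2.5.3a and counted them per gene with featureCounts of Subread 1.5.1, with SAMtools 1.6 also named. The analysis took the deposited whole-number counts of sense reads, with the unstranded counts in an alternative. CPM are these counts per unit of TMM library size, on the usual per-million scale, except in the summed marker levels, which use the total counts of the library. The deposited TPM and FPKM values were not used for tests. Groups came from the labels.

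Counts of the 12 SAS libraries were scaled by TMM and tested with edgeR 4.0.16 (R 4.3.3), as group means in a quasi-likelihood fit without a block, for genes that averaged 1 count or more, with Benjamini-Hochberg adjustment. A gene was called at an adjusted p under 0.05. The standard error (SE) of a log2 fold change was taken from the F statistic. The line difference was fitted on all 24 libraries. Alternatives used DESeq2 1.42.0, other filters and thresholds, a replicate block, and each library left out, and the fits were tested on simulated data. Same-numbered libraries deviated together in every pair (r over 0.1 each), so the numbers were taken as pairs. Depth limits the precision for scarce genes, and the SD and SE given cover only the spread between libraries.

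Named genes were KDM6A, KDM6B, CD44, PROM1 and ALDH1A3, the 12 largest changes in each direction among called genes with a mean of at least 1 CPM and no overlap of the groups, and up to 5 called members of each list with the largest change, from the fit without and then with the replicate block, or the 2 with the smallest p where none was called. Members and lists were chosen with earlier results of these data known. Genes outside this rule, including those given for their role that did not pass, were chosen after their values were seen. Promoters came from RefSeq GRCh38.p14 and gene positions from hs37d5. Some genes that the rule selects are not reported here.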

Additional observations from a re-analysis of the deposited data

Results flagged for a closer look

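For 14 named genes the effect of 4 Gy differed between the lines by the edgeR test of the difference over 24 libraries, given here as SAS minus Cal33 on the log2 scale with its adjusted p. The interferon-stimulated genes among them, IL36G and DTX4 were named after their values were seen. Neither the count of 14 nor its direction is therefore a result about the named genes. Among all genes, 0.427% were called for this difference, 35 with a larger and 70 with a smaller value in SAS. The value was lower in SAS for IL6 (-4.07, 0.00599), CXCL10 (-4.10, 0.0494), IL36G (-3.999, 0.0429), VIM (-2.95, 0.0104), L1CAM (-2.18, 0.0464), EPSTI1 (-1.75, 0.0311), IFI35 (-1.67, 0.0316) and PLSCR1 (-1.27, 0.0122). The same direction was found for UBE2L6 (-1.09, 0.0311), IFIT5 (-1.06, 0.0153), DTX3L (-0.90, 0.0311), DSC2 (-0.65, 0.0462) and DTX4 (-0.62, 0.0353). SERPINB10 was the gene with a larger value in SAS (4.21, 0.0154). Groups of 3 libraries were too small for a check of single outlying values.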

How the results depend on the processing

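For 4 Gy against sham, the calls were 1561 higher and 1284 lower with DESeq2 on 12 libraries, 1606 and 1488 with DESeq2 and a replicate block on 6, 2641 and 3093 with the replicate block over 12, 1829 and 2040 with it over 6, 502 and 395 on 6 without it, 347 and 319 over all 24, 271 and 193 at an adjusted p under 0.01, and 313 and 175 at a log2 fold change of at least 1. Added after seeing the data, pairs 1 and 2 alone gave 332 and 272, and with the block over all groups 2247 and 2403. Leaving out 1 library gave 374 to 1002 higher and 213 to 977 lower. Under GSK-J1 the calls were 1119 and 1123 with DESeq2, 2446 and 2583 with the block over 12, 2385 and 2402 over 6, 67 and 30 without the libraries with Cal33 transcripts, 147 and 94 at an adjusted p under 0.01, and 208 to 860 and 116 to 692 with 1 library left out. The line difference gave 186 and 253 with DESeq2, 67 and 217 without a filter, 250 and 381 with the block, 4 and 4 at 0.01, and 8 to 34 and 13 to 101 with 1 library left out. The causes were not tested. No setting called a gene for the GSK-J1 difference.

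Of 158 named genes called, 50 were called in all 27 settings and none changed direction. Some log2 fold changes, none called, changed sign. With 1 library left out, KDM6B ranged over -0.0411 to 0.0249, KDM6A over -0.0320 to 0.1396, MRPL23 over -0.1824 to 0.0385, PROM1 over -2.2654 to 0.1253, PLSCR1 over -0.0350 to 0.1739, IL36G over -0.0789 to 0.3639, and the median of mitochondrially encoded proteins over -0.002 to 0.253. KDM6B took 0.0165 with DESeq2 size factors and with DESeq2 on 12 libraries, 0.0001 without a filter, 0.0192 at a mean of at least 10 counts, 0.0137 with DESeq2 on 6 libraries with or without the replicate block, and 0.0016 without strand. On pairs 1 and 2 alone and then with the block over all groups, KDM6B took 0.0322 and 0.0367 and PLSCR1 -0.0419 and -0.0371.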

Other observations

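Among 14 members of the EGFR family and its ligands, 3 were higher after 4 Gy and 1 lower, against 3.63% and 3.45% of all genes. TGFA, a ligand of EGFR, had 138, 118 and 116 CPM in the 4 Gy libraries, against 78.7, 58.1 and 75.3 CPM in the sham libraries (log2 fold change 0.81 ± 0.13, edgeR adjusted p = 0.00411). NRG1, a ligand of the ERBB3 and ERBB4 receptors, rose by 0.57 and the scarce ligand EPGN by 1.80, while the receptor ERBB2 fell by 0.31. Among 18 known targets of the glucocorticoid receptor, 7 rose and 3 fell, against the same shares of all genes. The kinase SGK1 had 105, 88.0 and 79.0 CPM after 4 Gy, against 34.0, 15.6 and 35.9 CPM in sham, and CEBPD fell by 0.85.

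Of 9 genes of the aryl hydrocarbon receptor axis, CYP1B1, a cytochrome that oxidizes steroids and aromatic compounds, had 14.6, 9.33 and 15.5 CPM after 4 Gy against 45.0, 27.4 and 47.7 CPM in sham (-1.60 ± 0.28, adjusted p = 0.00572), and the receptor AHR had a log2 fold change of -0.50 (adjusted p = 0.0479), a call lost in 16 of 27 settings, with an adjusted p of up to 0.213. Among all genes, 3.45% were called lower. FOSL1, a subunit of AP-1, had 284, 199 and 291 CPM after 4 Gy against 88.6, 59.4 and 146 CPM in sham, and JUND, a further subunit, fell by 0.47. None of 18 genes of MHC class I presentation was called, with a median of -0.25, and 6 were lower with the replicate block, against 8.76% of all genes. By pair, the median of that list was -0.477, -0.26 and 0.126. TLR3, a sensor of double-stranded RNA, fell by 1.03, and AIM2, a sensor of DNA, rose by 0.81.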
